A study of Saccharomyces paradoxus and Saccharomyces cerevisiae and Nakaseomyces glabratus with 58 samples.

Results

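The genes described here are the 60 S. cerevisiae genes RPL1 to RPL34, which encode proteins of the large subunit of the cytosolic ribosome, together with the genes of 5 other yeast species that the deposited orthology table places in the same orthogroups. They were chosen by name and by orthogroup, with no use of measured values. In all, 278 of the 36369 genes in the count tables qualified. They were 60 of 6717 in Saccharomyces cerevisiae, 43 of 6038 in Saccharomyces paradoxus, 37 of 5461 in Candida glabrata (Nakaseomyces glabratus in the labels), 47 of 5926 in Naumovozyma castellii, 25 of 5318 in Kluyveromyces lactis and 66 of 6909 in Schizosaccharomyces pombe. The 60 genes form 34 families, 26 of them pairs of paralogs named A and B and 8 with a single gene (RPL3, RPL5, RPL10, RPL25, RPL28, RPL29, RPL30 and RPL32). The RPL24 orthogroup also holds RLP24 and the RPL33 orthogroup also holds RPL37, so rows of other species in these orthogroups may be either gene. The RPL7 orthogroup holds the S. pombe row rlp7 (SPAC664.06), named like the S. cerevisiae assembly factor RLP7, and it is counted among the 66. All 278 passed the filter on low counts.

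Polyadenylated RNA was sequenced from wild type strains and from strains altered in SFP1, which encodes a transcription factor with zinc fingers. The log phase groups of S. cerevisiae were wild type, delta sfp1 and HA tagged Sfp1. In S. paradoxus they were wild type and delta sfp1 in log phase and at 30 and 60 min of lag phase after glucose was given back. C. glabrata carries a pair of SFP1 paralogs and was sampled in log phase as wild type, delta CAGL0D00682g and delta CAGL0M09955g. N. castellii, also with a pair of paralogs, was sampled in log phase as wild type, delta Scas551.1 and delta Scas719.24. K. lactis and S. pombe were each sampled in log phase as wild type and delta sfp1. Each of the 19 groups had 3 libraries, lettered A to C, and all were labelled as Yeast culture (BMW). The labels give no strain backgrounds, and they leave unsaid if replicates came from different cultures; p-values therefore reflect only how much these samples varied.

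Cells grow only as fast as they make ribosomes, and in fast growing S. cerevisiae the transcripts of ribosomal proteins are among the most abundant in the cell. Their genes lack a single master switch: Rap1, Fhl1 and Ifh1 act at most of their promoters, and Sfp1 is known as an activator that answers nutrient and TOR signals. Most S. cerevisiae families kept both copies from an ancient genome duplication, and the copies of a pair encode the same or nearly the same protein. Because subunits are assembled in fixed proportions, the copies of a pair add up to the supply of one protein.

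Before the values of the members, the libraries themselves need a short account. A library held 1360921 to 3447865 counts in the log phase of all species but S. pombe, 712954 to 2252066 in S. pombe, and 418291 to 640289 in the S. paradoxus lag phase, except for deletion replicate A at 30 min with 34080. The deleted gene had 0 counts in its own deletion in S. cerevisiae, C. glabrata, K. lactis and the S. paradoxus lag phase, 2 counts in S. paradoxus log phase, and 5 and 0 counts in the N. castellii deletions (NCAS0A02570 in delta Scas551.1 and NCAS0J01590 in delta Scas719.24). In S. pombe the SFP1 ortholog SPAC16.05c was still at 40.5 ± 8.73 CPM (SD, n = 3) in the libraries labelled deletion, against 75.6 ± 13.5 in wild type. Mating type markers differed in type between wild type and deletion in S. paradoxus log phase and in N. castellii, and their summed levels differed without overlap in other comparisons too; the values stand beside those results. Levels are in CPM, counts scaled to a common total with TMM factors. Fold changes divide the altered strain by its wild type and are on the log2 scale with their standard error after ±, and a gene was called at a Benjamini-Hochberg adjusted p below 0.05 from the edgeR quasi-likelihood test over all genes of the species.

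In the S. cerevisiae deletion, 54 of the 60 genes fell, 4 rose and 2 were not called, with a median log2 fold change of -0.83. Over all 5826 genes tested, 26% were called lower and 26% higher, with a median of 0.03. For 58 of the 60 genes the deletion libraries and the wild type libraries did not overlap. The share of all genes for which this held was not counted, here or in the other species. The members took 7.79 to 7.87% of all counts in the wild type libraries and 5.28 to 5.64% in the deletion libraries. The 7 a-type marker genes summed to 1657 to 1694 CPM in wild type and 949 to 984 CPM in the deletion, and the 6 alpha-type marker genes summed to 32.1 to 41.0 CPM and 80.3 to 90.2 CPM, with HMLALPHA1 and MATALPHA1 at 0 in both groups. Neither pair of ranges overlaps, and the part of these shifts in the result was not tested. A fall in CPM is a fall in the share of messenger RNA, and less RNA per cell cannot be told apart here from fewer cells of one kind.

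Per kilobase of coding sequence, the wild type mean was highest for RPL3 (5348 ± 24.9 CPM per kb, SD, n = 3), a protein near the peptidyl transferase centre. RPL10 followed at 4787 ± 83.4 CPM per kb and RPL15A at 4727 ± 127 CPM per kb; these neighbours in the order lay within their spread of each other. The lowest were RPL15B at 76.9 ± 3.16, RPL22B at 180.2 ± 8.89, RPL7B at 395 ± 24.2 and RPL18B at 552 ± 21.1 CPM per kb, all of them second copies of a pair. The highest level was 69.6 times the lowest. The median level over the 60 genes was 2300 CPM per kb in wild type and 1205 CPM per kb in the deletion.

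The deepest fall was that of RPL8A (YHL033C, chromosome VIII, 35255 to 36025, minus strand, no intron), which encodes a protein needed in early steps of large subunit assembly. RPL8A had 1253, 1223 and 1205 CPM in wild type and 157, 171 and 162 CPM in the deletion. The fall was 7.52-fold (log2 -2.91 ± 0.065, edgeR adjusted p = 9.67e-15), and no deletion library came near a wild type library. Its partner RPL8B (YLL045C, chromosome XII, 47859 to 48629, minus strand) fell by 0.74 ± 0.065 on the log2 scale. RPL18B had 319, 314 and 296 CPM in wild type and 77.5, 84.6 and 87.7 CPM in the deletion (log2 -1.89 ± 0.083, edgeR adjusted p = 1.78e-11). RPL7B had 281, 311 and 279 CPM against 73.7, 98.3 and 82.3 CPM (-1.78 ± 0.095, edgeR adjusted p = 1.51e-10). RPL4B, whose protein lines the exit tunnel for the nascent chain, had 1681, 1572 and 1657 CPM against 574, 678 and 583 CPM (-1.42 ± 0.083, edgeR adjusted p = 5.18e-10). RPL22B, the minor copy of its pair, had 62.7, 68.5 and 68.2 CPM against 23.8, 29.1 and 23.5 CPM (-1.40 ± 0.112, edgeR adjusted p = 1.78e-08). RPL18B, RPL7B and RPL22B were low already in wild type, while RPL4B and RPL8A were not.

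Of the 8 single-copy genes, where no second copy can blur the count, 7 fell and RPL32 was not called. RPL30, a protein known in S. cerevisiae for blocking the splicing of its own transcript, had 900, 936 and 879 CPM in wild type and 331, 367 and 349 CPM in the deletion (-1.38 ± 0.059, edgeR adjusted p = 1.42e-11). RPL3 had 6257, 6201 and 6218 CPM against 2346, 2653 and 2380 CPM (-1.34 ± 0.070, edgeR adjusted p = 1.21e-10). RPL5, which carries the 5S rRNA into the subunit, had 3709, 3664 and 3685 CPM against 1471, 1505 and 1500 CPM (-1.30 ± 0.062, edgeR adjusted p = 4.55e-11). In these 3 genes the wild type libraries differed from each other far less than from any deletion library. RPL29, a small protein that is not essential for growth, had 345, 374 and 350 CPM against 159, 178 and 177 CPM (-1.06). RPL25, at the mouth of the exit tunnel, had 1774, 1739 and 1744 CPM against 905, 1155 and 923 CPM (-0.82). RPL28, the protein that mutates to give cycloheximide resistance, had 1806, 1777 and 1771 CPM against 1059, 1125 and 1047 CPM (-0.73). The smallest of the 7 falls was that of RPL10, which joins the subunit late, with 3131, 3241 and 3192 CPM against 2359, 2598 and 2395 CPM (-0.38 ± 0.065, edgeR adjusted p = 0.000123). RPL32 had 1505, 1559 and 1492 CPM in wild type and 1541, 1861 and 1561 CPM in the deletion (0.12 ± 0.071, edgeR adjusted p = 0.164), and its groups overlapped.

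The other end of the order was held by RPL15B, RPL21A, RPL19A, RPL19B, RPL32 and RPL23A. All of these but RPL15B lie on chromosome II, where RPL4A (-0.89) is the only other member. RPL4B, its partner on chromosome IV, was at -1.42. The part of chromosome location in these values was not tested. RPL15B (YMR121C, chromosome XIII, 509734 to 510348, minus strand) had 48.0, 48.8 and 45.1 CPM in wild type and 69.96, 74.8 and 67.02 CPM in the deletion (0.58 ± 0.095, edgeR adjusted p = 8.23e-05). Every deletion library lay above every wild type library, although the gene stayed the lowest of all in wild type level. RPL21A had 1328, 1378 and 1329 CPM against 1528, 1816 and 1650 CPM (0.31 ± 0.067, edgeR adjusted p = 0.00105). RPL19A, of a protein that bridges the subunits, had 1448, 1516 and 1438 CPM against 1761, 1941 and 1678 CPM (0.29 ± 0.062, edgeR adjusted p = 0.000918). RPL19B had 1962, 2065 and 1961 CPM against 2314, 2456 and 2280 CPM (0.24 ± 0.060, edgeR adjusted p = 0.00344), so both copies of RPL19 rose. RPL23A had 758, 816 and 764 CPM against 769, 841 and 781 CPM (0.03 ± 0.056, edgeR adjusted p = 0.678), with overlapping groups. The 42 genes that were neither single-copy nor among these extremes lay between -1.28 (RPL12A, a protein of the stalk base) and -0.60 (RPL2B), and each was called lower. With library sizes alone in place of TMM factors, which moves the median of all genes to 0.26, 54 members were lower and 6 higher, and the share of higher genes among all calls went from 50.02% to 73.8%.

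Other groups of the same machinery gave similar counts in this comparison. Of the 56 small subunit genes 52 were called lower and 1 higher, with a median of -0.82. Of the 22 remaining large subunit genes (RPL35 to RPL43 and the stalk proteins) 20 were lower and none higher, with a median of -0.82. Among 14 known regulators of these genes, SFP1 included, 5 were lower and 3 higher. TOD6 (0.96), STB3 (0.38) and FHL1 (0.25) were called higher, while RRP7 (-0.91), UTP22 (-0.66), CKA1 (-0.56) and DOT6 (-0.24) were called lower. IFH1 (0.08), RAP1 (0.06) and HMO1 (-0.07) were not called.

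In the strain with HA tagged Sfp1 none of the 60 genes was called by edgeR or by DESeq2 (background 0% of 5826 genes in either direction), and 1 had an unadjusted edgeR p below 0.05. Their log2 fold changes ranged from -0.14 to 0.12 with a median of 0.00. RPL8A had 1066, 1153 and 1198 CPM in the HA libraries, all below its wild type libraries. SFP1 itself stood at 81.1 CPM in the HA strain and 81.3 CPM in wild type.

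The paired genes allow a question that single genes do not: whether the copies of a pair kept their ratio. The ratio of A to B was tested in each library with limma over 569 S. cerevisiae pairs of paralogs. In the deletion 11 of the 26 pairs changed their ratio (42.3%), against 48.3% of all 569 pairs, so the share among the members is close to the background. In 8 of these 11 pairs the copy that was less abundant in wild type lost share. In 22 of the 26 pairs both copies were called lower, and in 8 of those 22 the ratio changed as well. The median size of the change was 0.18 on the log2 scale for the members and 0.41 for all pairs.

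RPL8 changed most. Its A copy made up 35.8, 35.2 and 34.97% of the counts of both copies in wild type and 10.5, 10.9 and 11.02% in the deletion (ratio change -2.17 ± 0.071 on the log2 scale, limma adjusted p = 4.57e-07). In RPL15 the A copy went from 98.4 ± 0.0398 to 96.0 ± 0.234% (SD, n = 3; ratio change -1.36 ± 0.103, limma adjusted p = 1.69e-05), while RPL15A fell by 0.78 and RPL15B rose. In RPL18 the A copy went the other way, from 87.5 ± 0.570 to 93.6 ± 0.677% (1.07 ± 0.102, limma adjusted p = 6.02e-05). RPL7 did the same, from 90.5 ± 0.489 to 95.2 ± 0.312% (1.05 ± 0.098, limma adjusted p = 4.82e-05). RPL21A rose from 54.7 ± 0.757 to 70.7 ± 0.720% of its pair (0.99 ± 0.073, limma adjusted p = 1.49e-05), while RPL21B fell by 0.68. RPL23A went from 43.2 ± 0.686 to 55.4 ± 1.29% and so from the minor to the major copy (0.71 ± 0.080, limma adjusted p = 0.000155). In each of these 6 pairs no deletion library overlapped a wild type library. Smaller changes were called for RPL13 (-0.61), RPL4 (0.54), RPL12 (-0.49), RPL1 (-0.34) and RPL11 (-0.30). RPL21A, RPL23A and RPL4A lie on chromosome II and their partners on chromosomes XVI, V and IV. In each of these pairs the copy on chromosome II gained share. RPL19, with both copies on chromosome II, was at 0.05 (limma adjusted p = 0.581). The part of chromosome location in these ratios was not tested.

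The 3 steadiest pairs were RPL16, RPL31 and RPL24. RPL16A made up 33.9, 34.9 and 35.4% of its pair in wild type and 37.1, 32.9 and 34.8% in the deletion (ratio change 0.01 ± 0.092, limma adjusted p = 0.932), while RPL16A fell by 0.67 and RPL16B fell by 0.68. RPL31A made up 74.4, 75.1 and 74.2% against 73.9, 74.7 and 74.2% (-0.02 ± 0.070, limma adjusted p = 0.799), while the copies fell by 1.13 and 1.11. RPL24A made up 53.1, 53.3 and 53.1% against 52.7, 53.4 and 51.8% (-0.03 ± 0.069, limma adjusted p = 0.708), while the copies fell by 1.003 and 0.97. In these pairs both copies dropped by nearly the same factor. In the HA strain none of the 26 pairs changed by limma (0% of all 569 pairs), with 0 at an unadjusted p below 0.05 and a largest change of 0.13; RPL24 was at -0.11 with no overlap (limma adjusted p = 0.676), and DESeq2 was not used for ratios.

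**Figure D1:**
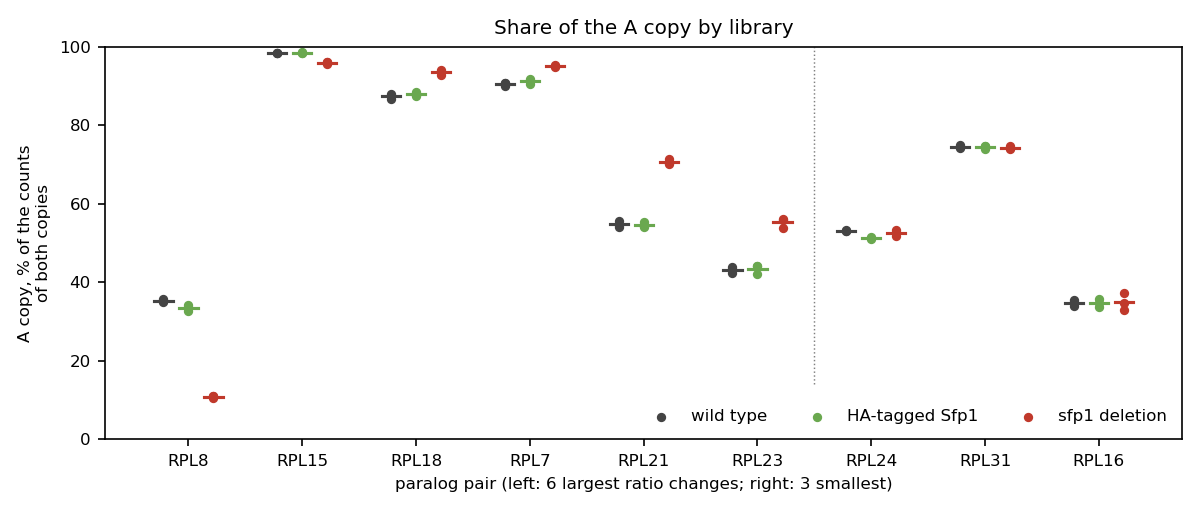
The share of the A copy in the counts of both copies (y axis, %) is plotted for the 6 pairs with the largest and the 3 with the smallest ratio change in the deletion (x axis); points are libraries and lines are group means for wild type, HA tagged and deletion. RPL8 drops from about 35.3% in wild type to 10.8% in the deletion, while RPL16, RPL31 and RPL24 overlap between wild type and deletion; in the HA strain RPL24 lies at 51.0 to 51.5%, below wild type at 53.1 to 53.3%.

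How far reads can tell the copies apart differs between pairs, and it bears on these ratios. The share of 25-base words of the A copy's coding sequence that the B copy also holds was 89.7% in RPL1, 84.3% in RPL4, 68.9% in RPL11 and 67.8% in RPL7, so the counts of these pairs rest on the split that the authors' software estimated. It was 27.3% in RPL8, 27.1% in RPL15, 36.7% in RPL18, 30.5% in RPL21 and 31.3% in RPL23. RPL22, RPL16, RPL31, RPL27 and RPL33 shared 0, 1.74, 2.83, 3.36 and 5.33%. The RPL8 coding sequences were 95.1% identical over 38 mismatches, and the encoded proteins differed at 7 positions. The RPL18 copies encode the same protein, as do the copies of RPL1, RPL2, RPL12, RPL19, RPL20 and RPL23.

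The upstream sequences of the pair that diverged most, of RPL15, which of the pairs with copies moving in opposite directions (RPL15 and RPL21) had the larger ratio change, and of the steadiest pair are shown for comparison. Each is the stretch from 400 to 151 bases before the start codon, 5′ to 3′ on the gene's strand, read from the R64 genome; the build used by the authors for this species is not given in the sources used here. Capitals mark matches on either strand to ACCCNNACA (Rap1-like), GACGC (Fhl1-like), AAAATTTT (the RRPE element) or GATGAG (the PAC element).
RPL8A, chrVIII:36176-36425, minus strand: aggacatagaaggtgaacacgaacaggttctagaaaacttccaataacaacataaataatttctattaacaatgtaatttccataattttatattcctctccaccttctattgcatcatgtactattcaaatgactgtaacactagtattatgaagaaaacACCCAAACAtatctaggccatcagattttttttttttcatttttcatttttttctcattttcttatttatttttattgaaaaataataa
RPL8B, chrXII:48780-49029, minus strand: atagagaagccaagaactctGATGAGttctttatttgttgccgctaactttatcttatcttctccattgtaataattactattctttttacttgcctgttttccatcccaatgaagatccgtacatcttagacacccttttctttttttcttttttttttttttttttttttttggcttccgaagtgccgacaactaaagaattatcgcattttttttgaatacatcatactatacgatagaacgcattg
RPL15A, chrXII:202741-202990, minus strand: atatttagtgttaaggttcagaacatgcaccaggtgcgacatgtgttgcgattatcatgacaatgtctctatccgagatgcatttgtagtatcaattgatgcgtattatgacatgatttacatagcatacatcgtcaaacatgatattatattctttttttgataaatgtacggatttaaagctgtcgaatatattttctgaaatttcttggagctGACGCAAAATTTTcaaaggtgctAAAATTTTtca
RPL15B, chrXIII:510499-510748, minus strand: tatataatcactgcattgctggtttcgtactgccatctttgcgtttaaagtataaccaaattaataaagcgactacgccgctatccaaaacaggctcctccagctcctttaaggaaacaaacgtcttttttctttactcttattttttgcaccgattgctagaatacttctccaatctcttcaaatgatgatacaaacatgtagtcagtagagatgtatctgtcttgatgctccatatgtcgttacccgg
RPL16A, chrIX:99567-99816, minus strand: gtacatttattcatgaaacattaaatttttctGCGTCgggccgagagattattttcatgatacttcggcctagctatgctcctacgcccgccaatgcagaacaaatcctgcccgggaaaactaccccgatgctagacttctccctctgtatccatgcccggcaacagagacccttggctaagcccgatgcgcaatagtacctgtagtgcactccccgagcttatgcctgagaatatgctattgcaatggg
RPL16B, chrXIV:495152-495401, minus strand: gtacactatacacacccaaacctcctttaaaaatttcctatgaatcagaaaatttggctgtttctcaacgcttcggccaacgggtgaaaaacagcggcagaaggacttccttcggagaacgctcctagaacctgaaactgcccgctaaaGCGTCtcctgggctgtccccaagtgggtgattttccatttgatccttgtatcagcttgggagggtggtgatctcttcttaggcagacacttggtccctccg

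The RPL8A stretch overlaps the annotated gene GUT1 and holds a Rap1-like match 239 bases before the start codon, while the RPL8B stretch holds only a PAC match at 380. The RPL15A stretch holds a Fhl1-like match at 184, next to RRPE matches at 179 and 161; the RPL15B stretch, which overlaps YMR122C, holds none of the 4 motifs. Both RPL16 stretches hold a Fhl1-like match on the reverse strand, at 368 and 251. Over 500 bases before the start codon, the Rap1-like motif occurred in 26 of the 60 members (43.3%) and in 5.5% of all 6006 promoters of that length. The Fhl1-like motif occurred in 27 (45.0%, against 30.4% of all), RRPE in 11 (18.3%, against 12.4%) and PAC in 13 (21.7%, against 28.2%). The Abf1-like motif occurred in 25 (41.7%, against 46.1%). The motifs can overlap each other, as a RRPE and a Fhl1-like match nearly do in RPL15A. A match is a description of these letters and not a bound site.

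Members with and without these features had similar medians in the deletion. The median log2 fold change was -0.79 over the 26 genes with a Rap1-like match and -0.90 over the 34 without. With a Fhl1-like match 27 of 27 genes were called lower (median -0.82), and without it 27 of 33 were lower and 4 higher (median -0.83). The 39 genes with an intron in the coding sequence had a median of -0.82, with 35 lower and 3 higher. The 21 genes without one had a median of -0.97, with 19 lower and 1 higher. These are descriptions with no test.

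In S. paradoxus, the closest relative of S. cerevisiae in the series, the fall in log phase was general. Of the 43 members 42 were called lower and none higher (32.6% of all 4908 genes were called lower), with a median of -1.18 against -0.05 for all genes and a range from -2.17 to -0.19. All 43 had wild type and deletion libraries that did not overlap, a count with no share over all genes to set it against. The RPL15 gene Spar_13.303 had 339, 331 and 320 CPM in wild type and 70.4, 79.7 and 70.7 CPM in the deletion (-2.17 ± 0.114, edgeR adjusted p = 3.19e-17). The RPL12 gene Spar_5.21 had 1106, 1068 and 1059 CPM against 300, 331 and 284 CPM (-1.82 ± 0.087). The RPL30 gene Spar_7.269 had 1086, 1179 and 1018 CPM against 287, 339 and 332 CPM (-1.78 ± 0.098). These 3 genes fell most, and the smallest changes were those of RPL22 (Spar_6.48, -0.52), RPL19 (Spar_2.242, -0.43) and RPL21 (Spar_2.357). RPL21 had 1261, 1286 and 1244 CPM against 1019, 1213 and 1101 CPM (-0.19 ± 0.083, edgeR adjusted p = 0.0535) and was not called. With library sizes alone 39 members were lower and 1 higher, RPL19 was at 0.06 and RPL21 at 0.31.

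The wild type and deletion libraries of this comparison differed in mating type markers, whose part in the result was not tested. The 3 rows of a-type markers (of 7 markers listed) summed to 1044 to 1069 CPM in wild type and 38.2 to 47.6 CPM in the deletion. The 5 rows of alpha-type markers summed to 30.9 to 35.9 CPM in wild type, with the row of HMLALPHA1 and MATALPHA1 at 0, and to 3405 to 3879 CPM in the deletion. The a-type receptor gene STE2 stood at 621 and 13.8 CPM and the alpha-type receptor gene STE3 at 5.81 and 473 CPM. Mating type and deletion therefore cannot be told apart in log phase. In the lag phase all 12 libraries had higher sums over alpha-type than over a-type rows: a-type rows summed to 10.98 to 33.2 and 22.01 to 43.9 CPM in wild type at 30 and 60 min and to 26.95 to 74.5 and 30.1 to 39.7 CPM in the deletion, and STE3 was at 323 and 351 CPM in wild type and 417 and 560 CPM in the deletion. Alpha-type rows summed to 979 to 1166 and 1057 to 1099 CPM in wild type at 30 and 60 min and to 3234 to 3933 and 3379 to 4126 CPM in the deletion. These sums were higher in the deletion without overlap at both times, and their part in the lag phase results was not tested.

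At 30 min after glucose repletion 39 of the 43 members were lower in the deletion and 1 was higher (24.6% of all genes lower, 28.3% higher), with a median of -0.74 against 0.13 for all genes. The lowest was Spar_12.80 of the RPL24 orthogroup, with 574, 529 and 455 CPM in wild type and 189, 145 and 153 CPM in the deletion (-1.78 ± 0.153, edgeR adjusted p = 8.47e-12). This row may be RLP24 and not RPL24. The orthogroup's other rows are Spar_7.268 and Spar_7.482, and both S. cerevisiae RPL24 copies lie on chromosome VII. RPL22 (Spar_6.48) had 258, 276 and 276 CPM against 53.9, 97.5 and 82.1 CPM (-1.63 ± 0.161), and RPL15 was at -1.51 ± 0.155. RPL21 (-0.05) and RPL19 (0.07) were not called. RPL10 (Spar_12.150), the late joining protein, had 4977, 5009 and 5174 CPM in wild type and 5498, 6711 and 6026 CPM in the deletion (0.28 ± 0.091, edgeR adjusted p = 0.00924), and it was not called once deletion replicate B was left out. Without deletion replicate A, the shallow library, 38 members were lower and 1 higher.

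At 60 min all 43 members were lower (25% of all genes), with a median of -1.34 against 0.04 for all genes and a range from -2.98 to -0.40. The RPL7 gene Spar_16.125 had 782, 805 and 848 CPM in wild type and 119, 108 and 85.8 CPM in the deletion (-2.98 ± 0.118, edgeR adjusted p = 1.11e-19). The RPL1 gene Spar_16.103, of the protein that forms the stalk beside the exit site for transfer RNA, had 2219, 2200 and 2351 CPM against 458, 505 and 481 CPM (-2.23 ± 0.097). The RPL9 gene Spar_7.132 had 2981, 2743 and 2911 CPM against 640, 644 and 586 CPM (-2.21 ± 0.090). The smallest falls were those of RPL19 (-0.76), RPL11 (Spar_7.396, -0.74) and RPL10, with 5535, 4872 and 5561 CPM against 4130, 3996 and 3997 CPM (-0.40 ± 0.088, edgeR adjusted p = 0.000322). The members took 8.89 to 9.22% of counts in wild type at 60 min, more than in any other S. paradoxus group, and 4.45 to 4.66% in the deletion.

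The deletion effect was larger at 60 than at 30 min. The difference between the effects was called for 38 of the 43 members, all toward a deeper fall at 60 min (7.82% of all genes were called in that direction and 7.5% in the other), with a median of -0.77 against -0.06 for all genes. It was greatest for RPL7 (-1.52 ± 0.167, edgeR adjusted p = 8e-08), whose CPM at 30 min were 1030, 932 and 950 in wild type and 216, 347 and 380 in the deletion. RPL18 (Spar_15.50) followed with -1.32 ± 0.126 (edgeR adjusted p = 6.71e-09); it had 2288, 2176 and 2221 CPM against 1428, 1691 and 1471 CPM at 30 min and 3226, 2953 and 3075 CPM against 857, 883 and 849 CPM at 60 min. RPL18 thus went up in wild type and down in the deletion between the time points. RPL1 was at -1.04. The differences of RPL11 (-0.26), RPL22 (0.39) and Spar_12.80 (0.50) were not called.

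From 30 to 60 min more members rose than fell in wild type, while in the deletion those that were called fell. In wild type 22 members were higher, 5 lower and 16 not called (16.7 and 19.8% of all genes), with a median of 0.22. RPL30 (0.69), RPL1 (0.67) and RPL9 (0.47) rose most, while Spar_12.80 (-0.84), RPL22 (-0.65) and RPL15 (-0.51) fell. In the deletion 38 were lower and none higher (14.7% of all genes lower, 7.97% higher), with a median of -0.50, led by RPL7 (-1.78), RPL18 (-0.85) and RPL15 (Spar_13.303, -0.80). Without the 30 min deletion replicate B, RPL15 was at -0.40 and not called. The RPL22 orthogroup's gene Spar_12.137 (-0.23), RPL30 (-0.21) and RPL8 (Spar_12.22, -0.17) were the highest and were not called. With library sizes alone the deletion count went to 5 lower and 1 higher, and the wild type count to 34 higher and 3 lower.

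Set against log phase, the deletion effect at 30 min was weaker for 31 members and stronger for 1 (20.1 and 11.7% of all genes). RPL10 (0.88), RPL2 (Spar_9.171, 0.84) and Spar_4.869 of the RPL33 orthogroup (0.81) had the largest positive differences, and RPL22 (Spar_6.48, -1.10) had the negative one. The RPL33 orthogroup also holds RPL37, so Spar_4.869 may be either gene. In S. cerevisiae RPL33A and RPL33B lie on chromosomes XVI and XV. At 60 min the effect was stronger than in log phase for 10 members and weaker for none (9.11% and 16.1% of all genes), led by RPL7 (-1.59 ± 0.153), RPL1 (-0.81) and RPL22 Spar_6.48 (-0.72). The log and lag libraries of wild type differ in mating type markers as given above, and the part of this in both counts was not tested. The first count was 8 with library sizes alone and 13 with no filter, and the second lay between 9 and 30 over the settings tried.

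**Figure D2:**
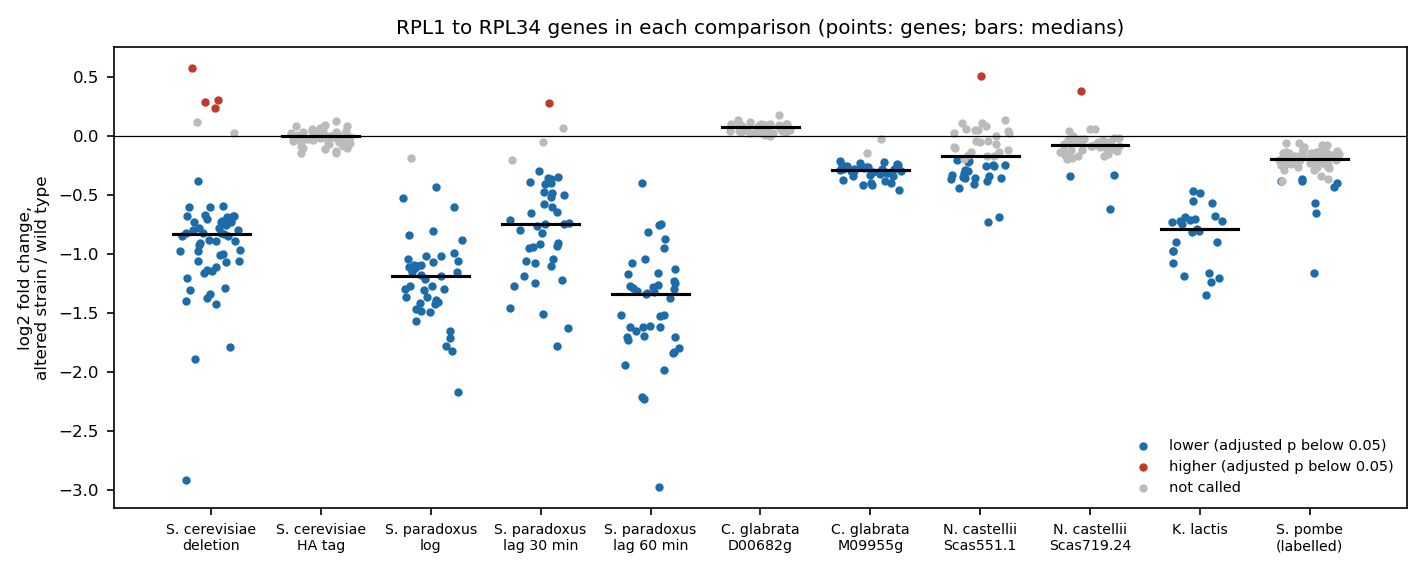
The log2 fold change (y axis) of each member gene against wild type is plotted for each altered strain, species and phase (x axis); points are genes, coloured by call, and bars are medians. The medians lie at -0.83 in the S. cerevisiae deletion, -1.18, -0.74 and -1.34 in S. paradoxus, -0.78 in K. lactis, and between -0.29 and 0.08 in the C. glabrata, N. castellii, S. pombe and HA comparisons.

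K. lactis, whose lineage split off before the genome duplication, has 1 gene for most families. All 25 members measured were lower in its deletion (33.3% of all 4941 genes), with a median of -0.78 and a range from -1.35 to -0.47. For all 25 the groups did not overlap, and the share over all genes was not counted. The RPL4 gene KLLA0B07139g had 3643, 3456 and 3602 CPM in wild type and 1329, 1466 and 1416 CPM in the deletion (-1.35 ± 0.053, edgeR adjusted p = 2.93e-13). RPL11 (KLLA0F08261g), of the protein that carries the 5S rRNA with RPL5, had 1638, 1723 and 1549 CPM against 746, 657 and 677 CPM (-1.24 ± 0.064). RPL18 (KLLA0A07227g) had 1686, 1819 and 1768 CPM against 802, 766 and 730 CPM (-1.20 ± 0.058). The smallest falls were those of RPL26 (KLLA0B05742g, -0.55), RPL17 (KLLA0A06336g, -0.49) and RPL29 (KLLA0D16071g, with 359, 455 and 399 CPM against 302, 280 and 296 CPM, -0.47 ± 0.082). The members took 4.22 to 4.61% of counts in wild type and 2.72 to 2.91% in the deletion. For 10 families, RPL8, RPL13, RPL19, RPL21, RPL23, RPL24, RPL25, RPL27, RPL30 and RPL32, no K. lactis row was matched and none was analysed here. Alpha-type marker rows summed to 18.5 to 22.5 CPM in wild type and 53.2 to 61.3 CPM in the deletion, and a-type rows to 78.9 to 88.1 and 93.9 to 107 CPM; the part of this in the result was not tested.

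In C. glabrata the deletions of the paralogs CAGL0M09955g and CAGL0D00682g differed. Delta CAGL0M09955g lowered 35 of the 37 members and raised none (18.6% of all 4760 genes lower), with a median of -0.29 and a range from -0.45 to -0.03; the count was 14 with library sizes alone. CAGL0J00957g of the RPL24 orthogroup had 137, 137 and 150 CPM in wild type and 109, 98.4 and 103 CPM in this deletion (-0.45 ± 0.078, edgeR adjusted p = 2.53e-06). This row may be RLP24 and not RPL24. The orthogroup's other row, CAGL0A01562g, had 1829, 1923 and 1919 CPM in wild type. RPL22 (CAGL0F01683g) had 610, 650 and 622 CPM against 472, 436 and 503 CPM (-0.42 ± 0.058). RPL14 (CAGL0M10241g) had 872, 825 and 853 CPM against 645, 617 and 655 CPM (-0.41 ± 0.052). Even these largest falls were small in size. The libraries did not overlap in 36 of the 37 genes, and the share over all genes was not counted. RPL27 (CAGL0K06567g) was at -0.21, and CAGL0B01203g of the RPL33 orthogroup (-0.14, edgeR adjusted p = 0.0506) and RPL9 (CAGL0G08734g, -0.03) were not called.

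Delta CAGL0D00682g called no member in either direction with edgeR or DESeq2 (0.189% of all genes lower and 0.378% higher). All 37 fold changes were above 0, from 0.00 (RPL16) to 0.18 (RPL9, edgeR adjusted p = 0.309) with a median of 0.08, and 9 had an unadjusted p below 0.05, all higher. RPL22 had 659, 632 and 725 CPM and CAGL0J00957g had 143, 160 and 147 CPM in this deletion, and both overlapped wild type. Set directly against each other, all 37 members were lower in delta CAGL0M09955g than in delta CAGL0D00682g (17.2% of all genes), with a median of -0.36. The difference was greatest for CAGL0J00957g (-0.54), RPL22 (-0.51) and RPL28 (CAGL0J10384g, -0.48) and smallest for RPL9 (-0.21 ± 0.067, edgeR adjusted p = 0.014), which was not called without replicate C of delta CAGL0D00682g or without replicate A of delta CAGL0M09955g. The members took 6.31 to 6.62% of counts in wild type, 6.61 to 7.03% in delta CAGL0D00682g and 5.81 to 5.98% in delta CAGL0M09955g.

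In N. castellii fewer members were called. Delta Scas551.1 lowered 22 of 47 and raised 1 (20.4% of all 5338 genes lower, 21.4% higher), with a median of -0.17; with library sizes alone 3 were lower and 3 higher. The RPL9 gene NCAS0B06530 had 281, 235 and 289 CPM in wild type and 145, 148 and 193 CPM in this deletion (-0.73 ± 0.108, edgeR adjusted p = 8.43e-06). NCAS0A01460 of the RPL24 orthogroup had 73.6, 90.1 and 83.2 CPM against 41.1, 52.6 and 60.2 CPM (-0.69 ± 0.122). RPL3 (NCAS0C05510) had 4104, 3813 and 4153 CPM against 2890, 2798 and 3189 CPM (-0.44 ± 0.075). These 3 genes had groups that did not overlap. RPL29 (NCAS0E01890) was the gene called higher, with 192, 166 and 172 CPM against 208, 207 and 342 CPM (0.51 ± 0.136, edgeR adjusted p = 0.00429), with no overlap, and 1 library, replicate C, stood far above the others; without it the gene was at 0.23 and not called, and DESeq2 did not call it.

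Delta Scas719.24 lowered 3 members and raised 1 (11.3% of all genes lower, 14.8% higher), with a median of -0.08; with library sizes alone 15 were lower, without deletion replicate B 1 was lower, and without wild type replicate B 5 were. RPL9 had 196, 163 and 165 CPM in this deletion (-0.62 ± 0.103, edgeR adjusted p = 7.64e-05), NCAS0A01460 was at -0.34 and RPL27 (NCAS0A07950) at -0.33. NCAS0A01460 was not called when replicate B or C of either group was left out or with DESeq2, and RPL27 was not called without deletion replicate B. RPL8 (NCAS0C05910) rose from 387, 358 and 391.9 CPM in wild type to 468, 533 and 479 CPM (0.38 ± 0.086, edgeR adjusted p = 0.00182), while it was at 255, 309 and 324 CPM in delta Scas551.1. Between the deletions, 9 members were higher and 1 lower in delta Scas719.24 than in delta Scas551.1 (12.9 and 11.3% of all genes). Those 10 calls became 5 without replicate B of delta Scas551.1 and 6 without replicate C of delta Scas719.24. RPL8 differed most (0.74 ± 0.089, edgeR adjusted p = 1.15e-06), then RPL10 (NCAS0J00250, 0.33), while RPL29 was lower (-0.55). The members took 4.63 to 5.45% of counts in wild type, 4.64 to 5.21% in delta Scas551.1 and 4.19 to 4.34% in delta Scas719.24. The balance between the deletions depended on the scaling: with library sizes alone 22 were lower and 1 higher, and RPL10 was at -0.000710.

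Mating type markers also differed between N. castellii wild type and both deletions, and their part in the results was not tested. The 6 rows of alpha-type markers summed to 803 to 1004 CPM in wild type, 24.2 to 30.5 CPM in delta Scas551.1 and 22.9 to 32.8 CPM in delta Scas719.24. In both deletions the row of HMLALPHA1 and MATALPHA1 and a row of the alpha-factor genes were at 0. The 4 rows of a-type markers summed to 36.5 to 46.5, 135 to 146 and 147 to 175 CPM in the same order. Mating type and deletion cannot be told apart in the comparisons with wild type, while the deletions, set against each other, had similar marker sums.

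In S. pombe, the species most distant from the rest, the libraries labelled deletion showed small shifts. Of 66 members 8 were called lower and none higher (6.82% of all 5296 genes lower, 3.19% higher), with a median of -0.20 and all 66 fold changes below 0; 21 had an unadjusted p below 0.05. The count was 13 with DESeq2 and 39 without wild type replicate A, and it was 2 without any one of the other 5 libraries. The gene rpl1603 (SPBC2G2.05), the least abundant of its RPL16 genes, had 218, 252 and 243 CPM in wild type and 98.2, 110 and 113 CPM in the labelled deletion (-1.16 ± 0.094, edgeR adjusted p = 0.000106). Its family members rpl1602, with 2377, 2656 and 2473 CPM against 2021, 2042 and 2219 CPM, and rpl1601, with 1055, 1122 and 1059 CPM against 923, 981 and 1039 CPM, were not called. The gene rlp24 (SPAC22E12.13c), named like the S. cerevisiae assembly factor RLP24, had 214, 253 and 238 CPM against 148, 141 and 164 CPM (-0.65 ± 0.093, edgeR adjusted p = 0.00214). The gene rpl102 (SPBC30D10.18c) had 281, 391.8 and 378 CPM against 251, 233 and 221 CPM (-0.56 ± 0.125, edgeR adjusted p = 0.0209), and it was called in that fit but not when any library other than wild type replicate A was left out. The smallest changes, rpl13 (-0.07), rpl1201 (-0.06) and rpl26 (-0.06), were not called. The members took 12.8 to 15.3% of counts in wild type and 13.1 to 14.2% in the labelled deletion, and these ranges overlap. The 3 rows matched to a-type markers summed to 199.8 to 217 CPM in wild type and 169 to 188 CPM in the labelled deletion, the 1 row matched to alpha-type markers was at 4.53 to 8.52 and 9.67 to 11.1 CPM, and their part in the result was not tested.

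**Figure D3:**
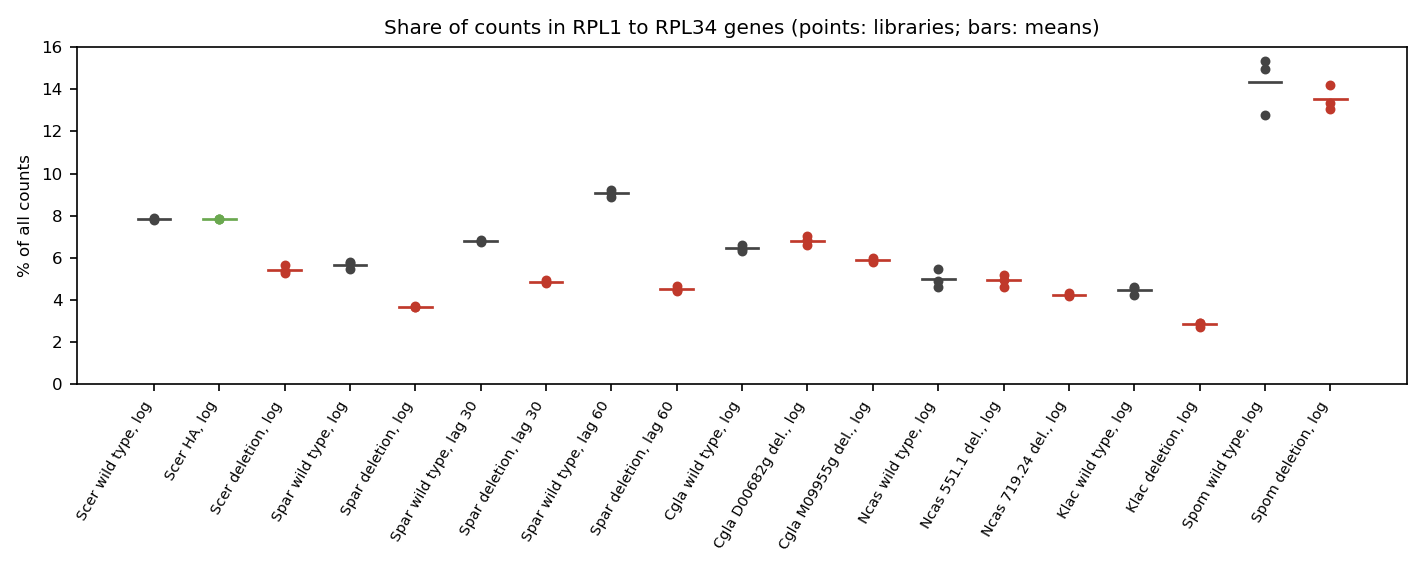
The share of all counts that fell on member genes (y axis, %) is plotted for each library of each group (x axis); points are libraries and lines are group means. Deletion libraries lie below wild type without overlap in S. cerevisiae, K. lactis, S. paradoxus at all 3 phases, C. glabrata delta CAGL0M09955g and N. castellii delta Scas719.24, while S. pombe ranges overlap.

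The remaining ribosomal protein genes were counted in the other species too. In S. paradoxus 35 of 35 small subunit genes were lower in log phase, 28 at 30 min and 35 at 60 min, and of 12 remaining large subunit genes 12, 9 and 12 were lower. In K. lactis it was 26 of 26 and 9 of 9, and in delta CAGL0M09955g 33 of 37, with 1 higher, and 9 of 11. In delta CAGL0D00682g none was called by edgeR in either list, with 13 and 2 at an unadjusted p below 0.05. Delta Scas551.1 lowered 17 of 41 and 4 of 16, delta Scas719.24 lowered 3 of 41 and none of 16 (edgeR, 3 at an unadjusted p below 0.05), and the S. pombe labelled deletion lowered 2 of 57 and 2 of 21.

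Whether the deletion effect on a family differed between species was tested on counts summed over each orthogroup, with the S. cerevisiae deletion as the common reference; the 7 comparisons therefore share its libraries. In S. paradoxus log phase the fall was deeper than in S. cerevisiae for 19 of 31 families and shallower for 1 (18.7 and 15% of all 4014 orthogroups), with medians of -1.12 and -0.81. In S. paradoxus 21 of the 31 orthogroups held 1 row, while in S. cerevisiae 26 of 34 held 2. Some sums therefore set 1 row against 2, and the part of this in the count was not tested. RPL15 was at -2.11 ± 0.093 in S. paradoxus and -0.74 in S. cerevisiae, a difference of -1.37 ± 0.114 (edgeR adjusted p = 1.39e-12). The S. paradoxus sum held only Spar_13.303, while RPL15A made up 98.4% of the S. cerevisiae RPL15 counts in wild type. In the S. cerevisiae deletion RPL15A was at -0.78 and RPL15B at 0.58. Which copy Spar_13.303 matches was not tested. The exception was RPL8, at -0.78 and -1.20 (difference 0.42 ± 0.092, edgeR adjusted p = 0.000414). Its S. paradoxus sum held only Spar_12.22, while the S. cerevisiae sum held RPL8A (-2.91) and RPL8B (-0.74). The part of this in the difference was not tested. RPL3 (-1.30 and -1.33) and RPL5 (-1.34 and -1.30) were not called different. The count was 11 with library sizes alone.

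In K. lactis 7 families were called shallower, 7 deeper and 10 not called of 24 (26.3 and 29.2% of all 3296 orthogroups). These shares were close to those of all orthogroups. RPL15 was deeper at -1.16 ± 0.065 (edgeR adjusted p = 7.23e-05), as were RPL10 at -0.68 against -0.37 and RPL28 at -0.95 against -0.72. RPL3 was shallower at -1.05 against -1.33 (edgeR adjusted p = 0.00982), and RPL5 at -1.14 was not called different. In C. glabrata 31 of 34 families were above the S. cerevisiae effect for delta CAGL0D00682g and 29 for delta CAGL0M09955g (20.9 and 22.1% of all 4089 orthogroups), with 1 and 2 below. In N. castellii it was 30 and 31 of 34 for delta Scas551.1 and delta Scas719.24 (25.1 and 24.4% of all 4140 orthogroups), with 1 and 2 below. In the S. pombe labelled deletion 29 of 34 were above and 2 below (23.3 and 18.2% of all 3235 orthogroups).

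Single families were followed through the species. RPL10 was among the smallest falls in S. cerevisiae at -0.37 and was at -0.54 in S. paradoxus log phase, -0.32 in delta CAGL0M09955g, -0.35 in delta Scas551.1 and -0.24 in S. pombe, and none of these 4 effects was called different from S. cerevisiae. RPL10 was at 0.03 in delta CAGL0D00682g and -0.03 in delta Scas719.24, and both effects were called above the S. cerevisiae value, while the K. lactis effect was called deeper. RPL19, the pair that rose in S. cerevisiae (0.27 for the sum), was at -0.37 in S. paradoxus, 0.04 and -0.22 in C. glabrata, -0.11 and -0.04 in N. castellii and -0.19 in S. pombe, and each was called below the S. cerevisiae value. RPL21, at -0.05 in S. cerevisiae, was at -0.12 in S. paradoxus, which was not called different (edgeR adjusted p = 0.612), nor was any of its C. glabrata, N. castellii and S. pombe effects, from -0.23 to 0.09. In S. cerevisiae both RPL19 copies and RPL21A lie on chromosome II, and the part of this in the RPL19 and RPL21 comparisons was not tested. RPL30, at -1.37 in S. cerevisiae, was at -1.72 in S. paradoxus, 0.11 in delta CAGL0D00682g, -0.25 in delta CAGL0M09955g, -0.04 in delta Scas551.1, -0.05 in delta Scas719.24 and -0.23 in S. pombe. RPL8 ranged from -1.20 in S. cerevisiae to 0.38 in delta Scas719.24.

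**Figure D4:**
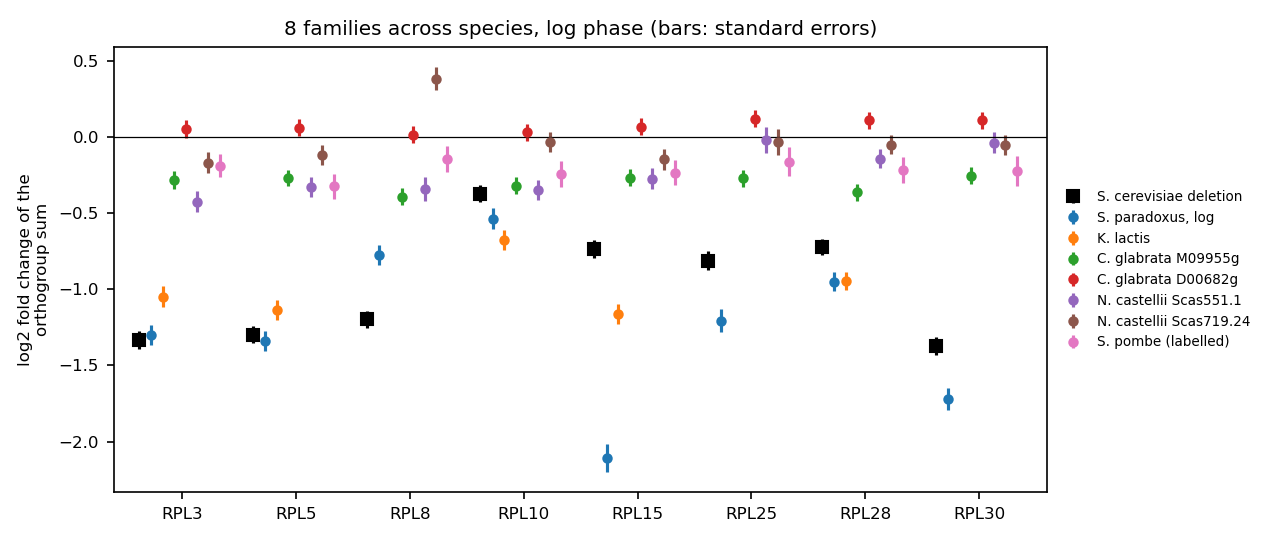
The log2 fold change of the orthogroup sum (y axis) is plotted for 8 families (x axis) in log phase in each altered strain; points are estimates from 3 against 3 libraries and bars are standard errors. S. cerevisiae, S. paradoxus and K. lactis points lie well below 0 for RPL3, RPL5 and RPL15, where the S. paradoxus point of RPL15 is at -2.11, while C. glabrata, N. castellii and S. pombe points of these families lie between -0.43 (RPL3 in delta Scas551.1) and 0.07 (RPL15 in delta CAGL0D00682g); families with no K. lactis row have no point.

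Values of the same families in log ratios from microarrays stand in the authors' deposited table, for time points of 15 to 90 min whose treatment, base, sign and replication are not stated there. As deposited, the N. castellii columns for Scas719.24 in the authors' deposited table had medians over 33 member families of 2.38, 1.41 and 0.66 at 30, 60 and 90 min, against 0.08, 0.05 and 0.03 over all orthogroups. At 30 min all 33 families were above 0 in the authors' deposited table, from 0.54 (RPL3) to 3.31 (RPL31). The Scas551.1 columns of the authors' deposited table had medians of 0.28, 0.34 and 0.21. For K. lactis the authors' deposited table gave medians of 0.56, 0.25 and 0.06 at 30, 60 and 90 min. For S. cerevisiae it gave 0.01, 0.27, 0.18 and 0.22 at 15, 30, 60 and 90 min in the columns marked BY and 0.18, 0.44 and 0.44 at 30, 60 and 90 min in those marked RM, in the authors' deposited table. The C. glabrata and S. pombe medians in the authors' deposited table lay between -0.15 and 0.14. The sequencing columns of the authors' deposited table had the opposite sign to the fold changes given here in 34 of 34 families in both C. glabrata deletions, delta Scas719.24 and S. pombe, in 24 of 24 in K. lactis and in 32 of 34 in the S. cerevisiae deletion and in delta Scas551.1. The S. cerevisiae exceptions were RPL19 and RPL32, deposited at 0.69 and 0.83, where RPL19A, RPL19B and RPL32 were at 0.29, 0.24 and 0.12 here. RPL21 and RPL23 were deposited at 0.64 and 0.78, where RPL21A and RPL23A were at 0.31 and 0.03 here and RPL21B and RPL23B at -0.68 and -0.67. RPL19A, RPL19B, RPL32, RPL21A and RPL23A lie on chromosome II, and RPL4A is the only other member there. RPL4 stood at 1.61 in the authors' deposited table, where RPL4A and RPL4B were at -0.89 and -1.42 here. The part of chromosome location in these differences was not tested. The source of these differences from the authors' deposited table was not tested.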

How the data were processed

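Each of the 57 libraries used had a column of estimated counts per gene, which are RSEM expected counts in the deposited tables, with no further normalization by the authors; they were rounded here. The tools named by the submitters' processing notes are Bowtie 1, RSEM 1.2.11 and edgeR, without roles, and the one build named is ASM294v2, of S. pombe. One labelled S. cerevisiae wild type sample at 60 min was not used here. The deposited log2 ratio columns per orthogroup are the authors' own sequencing comparisons, and the authors' microarray columns hold log ratios with base, sign and replication not stated; both were only described. The deposited orthology table, which assigns genes to numbered orthogroups, joined the species.

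Within each species all groups entered 1 edgeR quasi-likelihood fit (edgeR 4.0.16, R 4.3.3) with TMM factors and filterByExpr defaults, and p-values were adjusted by Benjamini-Hochberg over all genes tested. Standard errors were derived from the fold change and its F statistic. Paralog ratios were tested with limma 3.58.1 on log2 of the A count plus 0.5 over the B count plus 0.5 in the 9 S. cerevisiae libraries; the RPL24 and RPL33 pairs were added to the orthogroups of exactly 2 genes. Species were compared on orthogroup sums in joint edgeR fits with an interaction term. The procedures were tested on simulated data with known changes. Alternatives were library sizes alone, RLE factors, no filter, DESeq2 1.42.0, a replicate block, leaving out each library, an added count of 2 and limma with a trend in the ratios, and orthogroups with 1 gene in both species. Python 3.11.15, numpy 2.4.6, pandas 2.3.3, matplotlib 3.10.9 and biopython 1.88 were used.

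Values were given per library for the 6 lowest and 6 highest S. cerevisiae members whose mean log2 CPM reached 4, the single-copy genes, the 6 largest and 3 smallest ratio changes, and the 3 lowest and 3 highest members in other comparisons. Families followed across species were RPL3, RPL5, RPL8, RPL10, RPL15, RPL25, RPL28 and RPL30; RPL19, RPL21, rpl1601 and rpl1602 were added after their values were seen. The members and the lists (small subunit genes, remaining large subunit genes, regulators, mating type markers) were chosen with earlier results of these data known. Counting error falls as depth rises, so the S. paradoxus lag phase values are less precise, as is S. pombe labelled deletion replicate C with 712954 counts. The other S. pombe libraries held 1653411 to 2252066 counts. Between S. pombe wild type replicates, the mean squared difference over that of counting error alone was 7.48 for A and B. It was 5.83 for A and C and 2.49 for B and C. RSEM splits reads shared by paralogs by estimation.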

Additional observations from a re-analysis of the deposited data

Results flagged for a closer look

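In S. paradoxus the deletion effect at 30 min differed from that in the other phases for many members, by edgeR's test of that difference. The effect was called different for 38 of 43 members between 60 and 30 min (7.82% of all genes lower, 7.5% higher). Between 30 min and log phase it was called different for 32 (11.7% of all genes lower, 20.1% higher). Between 60 min and log phase it was called different for 10, all lower (9.11% of all genes lower, 16.1% higher). With both directions counted, the share for 60 min and log phase was close to that of all genes. The log phase wild type libraries carried a-type and all lag libraries alpha-type markers, as given above, and the part of this was not tested. In C. glabrata the paralog deletions differed for all 37 members (17.2% of all genes lower, 12.3% higher). In N. castellii the paralog deletions differed for 10 of 47, of which 9 were higher in delta Scas719.24. Of all genes, 12.9% were called higher and 11.3% lower there, so with both directions counted the share of members was close to the background.

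Against the S. cerevisiae deletion, the effect on the orthogroup sum was called different for 20 of 31 families in S. paradoxus log phase, 32 of 34 in delta CAGL0D00682g, 31 of 34 in delta CAGL0M09955g, 31 of 34 in delta Scas551.1, 33 of 34 in delta Scas719.24, 14 of 24 in K. lactis and 31 of 34 in the S. pombe labelled deletion. In the 4 comparisons of C. glabrata and N. castellii and in S. pombe nearly all of these families were above the S. cerevisiae value. The K. lactis share was close to that of all orthogroups, of which 26.3% were called above and 29.2% below. The other shares over all orthogroups, and the unequal rows of S. paradoxus, are given above. Groups of 3 libraries are too small for a test of single outlying libraries.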

How the results depend on the processing

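Scaling was the setting that mattered most. With library sizes alone the count of members called went to 8 for the S. paradoxus effect at 30 min minus log, 30 for 60 min minus log, 6 for the S. paradoxus deletion at 60 against 30 min, 14 for delta CAGL0M09955g, 3 for delta Scas551.1, 15 for delta Scas719.24, 5 for S. pombe and 11 families for S. paradoxus minus S. cerevisiae. The direction turned for the N. castellii deletions set against each other (23 called, 22 of them lower) and for single genes: Spar_2.242 at 0.0648 and Spar_2.357 at 0.31 in S. paradoxus log phase, Spar_12.22 at 0.21 between the time points in the deletion, and NCAS0J00250 at -0.000710 between the N. castellii deletions. For 60 min minus log, RLE factors gave 19, no filter 24 and DESeq2 23; for 30 min minus log no filter gave 13; for S. pombe DESeq2 gave 13. The cause was not tested.

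In a further setting only orthogroups of 1 gene in both species were kept. The families called different were then 2 of 6 in S. paradoxus and 7 of 8 in each C. glabrata deletion. They were 5 and 6 of 6 in delta Scas551.1 and delta Scas719.24, 4 of 5 in K. lactis and 1 of 1 in S. pombe. Fewer families could be tested in this setting, and the cause of any change in the share called was not tested. Leaving out single libraries moved the counts to 1 to 5 for delta Scas719.24, 5 to 11 between the N. castellii deletions and 2 to 39 for S. pombe; the other counts stayed within 1.5 times. Of the counts of calls and other comparison results, 110 of 131 under other settings and 212 of 222 with a library left out stayed within 1.5 times with the same direction. For single genes, other settings ended 14 calls, made 13 and turned the sign of 4 values, and leaving out a library ended 15 and made 8; with TMM-scaled library sizes as the denominator, 16 mean shares of counts moved by more than 1 SD.

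Same-lettered libraries did not deviate together (correlations of deviations between -0.174 and 0.0864), so the letters were not taken as pairs. With the letter as a replicate block, counts went from 38 to 34 for 60 minus 30 min in S. paradoxus, from 8 to 6 in S. pombe and stayed at 54 in S. cerevisiae, and the pairs with a changed ratio stayed at 11. Depth limits the S. paradoxus lag phase, where deletion replicate A at 30 min held 34080 counts.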
